A study of Mus musculus with 12 samples.

Results

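The NF-kB subunits and feedback targets are 10 genes, Nfkb1, Nfkb2, Rela, Relb, Nfkbia, Nfkbie, Tnfaip3, Birc3, Icam1 and Traf1, chosen by symbol from the 24421 genes in the count tables. Their RNA was measured by RNA sequencing in B16F10, a mouse melanoma cell line, with 3 replicates in each of 4 groups. Control cells received the vehicle DMSO. DAC cells received 25 nM of 5-aza-2'-deoxycytidine, a DNA methyltransferase inhibitor, for 72 h, and SFN cells received sulforaphane, an isothiocyanate from cruciferous vegetables, during the last 48 h. DAC+SFN cells received both, with SFN added after the first day of DAC. For the single SFN treatment the deposited protocol gives 5 nM and the methods of the study give 5 µM, while both give 5 µM for the combination, so the SFN dose may differ between SFN and DAC+SFN. All groups were the same line in culture, harvested at 72 h, and the study's methods describe the replicates as independent repeats of the treatment.

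NF-kB is a family of transcription factors that bind DNA as pairs of subunits. Inhibitors of the IkB family hold the pairs in the cytoplasm until kinases mark the inhibitors for destruction, and a separate route processes the Nfkb2 product to release pairs with RelB. The factor then switches on many genes, among them its own inhibitors, which ends the signal. In melanoma, NF-kB activity is known for its links to survival and to inflammatory signals, and since it is set largely by the location and processing of the proteins, RNA levels do not measure it.

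In these cells the RNA levels of the NF-kB genes differed little between the groups. Of the 10 members, 8 passed the filter on low counts, and Icam1 and Traf1 did not. By edgeR, a tested member passed the test only in DAC+SFN against control, where Nfkb2 and Rela rose, 2 of 8 members or 25%, in a comparison in which 31.6% of all 11638 tested genes passed and 17% were higher. A gene was called at a Benjamini-Hochberg adjusted p under 0.05, with p-values adjusted over all tested genes. No member passed that test with a fold change above 2 in DAC+SFN against control, as 2.66% of all genes did.

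Library totals ranged from 15880957 to 27291436 counts, so 1 CPM, a count scaled to a library total of 1000000, stood for 15.9 to 27.3 counts. The 7 melanocyte markers (Dct, Tyrp1, Tyr, Pmel, Mlana, Mitf and Sox10) were present in every library and summed to between 21417 and 30155 CPM. The leukocyte genes Ptprc, Cd3e, Adgre1, Itgam and Csf1r had 0 to 3 counts in each library. Cd68, a lysosomal gene on the same list, had 45 to 239 counts. Its level was 2.94, 4.78 and 2.31 CPM in control, 3.93, 5.68 and 5.36 CPM with DAC, 6.16, 8.99 and 6.46 CPM with SFN, and 9.61, 11.2 and 8.27 CPM with DAC+SFN. Cd68 thus rose in DAC+SFN against control, the comparison in which Nfkb2 and Rela were called, by 1.55 on the log2 scale (adjusted p = 2.0e-05), and its part in that result was not tested. In bulk RNA, a gene's lower level in each cell and fewer cells that express it cannot be told apart.

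Promoters are shown for both genes that passed the test, Nfkb2 and Rela, and for 2 inhibitors of the pathway, Nfkbia and Tnfaip3, since NF-kB acts on its targets through short kappaB motifs. The sequences are from RefSeq on GRCm38.p6 and run 5' to 3' from 250 bases before to 50 bases after an annotated start, in the direction of the gene, with matches to the kappaB consensus on either strand in capitals.
Nfkb2 (chr19:46304487-46304786, plus strand): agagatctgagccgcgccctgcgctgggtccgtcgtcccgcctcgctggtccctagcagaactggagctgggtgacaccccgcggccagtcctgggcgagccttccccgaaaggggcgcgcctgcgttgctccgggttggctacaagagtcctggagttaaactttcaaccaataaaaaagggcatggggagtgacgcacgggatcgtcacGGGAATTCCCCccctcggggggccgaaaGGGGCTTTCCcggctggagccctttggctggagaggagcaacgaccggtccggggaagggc
Rela (chr19:5637291-5637590, plus strand): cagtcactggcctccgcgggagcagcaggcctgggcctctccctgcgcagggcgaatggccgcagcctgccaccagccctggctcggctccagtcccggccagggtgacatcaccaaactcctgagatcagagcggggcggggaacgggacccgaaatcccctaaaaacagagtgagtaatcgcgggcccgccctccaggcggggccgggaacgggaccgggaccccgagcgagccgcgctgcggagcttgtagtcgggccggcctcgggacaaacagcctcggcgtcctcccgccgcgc
Nfkbia (chr12:55492598-55492897, minus strand): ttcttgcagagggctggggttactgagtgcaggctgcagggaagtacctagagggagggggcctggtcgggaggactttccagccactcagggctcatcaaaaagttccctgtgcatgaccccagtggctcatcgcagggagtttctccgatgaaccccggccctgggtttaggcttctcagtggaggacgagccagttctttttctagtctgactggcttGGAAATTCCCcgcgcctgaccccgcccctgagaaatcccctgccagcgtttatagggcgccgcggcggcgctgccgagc
Tnfaip3 (chr10:19015361-19015660, minus strand): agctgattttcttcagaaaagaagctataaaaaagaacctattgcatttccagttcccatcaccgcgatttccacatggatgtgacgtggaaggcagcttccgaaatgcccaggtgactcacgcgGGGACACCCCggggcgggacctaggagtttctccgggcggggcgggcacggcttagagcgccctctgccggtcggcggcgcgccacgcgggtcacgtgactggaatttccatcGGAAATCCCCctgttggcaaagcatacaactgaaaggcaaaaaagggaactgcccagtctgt

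RefSeq windows were matched for 8 of the 10 members, 11 windows in all, and none was matched for Nfkb1 or Relb. The consensus was found in 6 of the 11 windows, those of Nfkb2, Nfkbia and Nfkbie and 1 of those of Tnfaip3, against 4.51% of the 32851 windows of this length. By gene it was found in 4 of 8 members, and 2 of the 3 Nfkb2 windows overlap and share a match. The members were chosen as NF-kB subunits and feedback targets, so matches may be more common by that choice, which was not tested. A window without a match may still hold a looser form of the motif, which was found in 50.8% of all windows. In the Nfkb2 window above, the overlapping matches GGGAATTCCC and GGAATTCCCC began 39 and 38 bases before the start and GGGGCTTTCC began 11 bases before it. The Nfkbia match GGAAATTCCC began 29 bases before the start, and in Tnfaip3 GGGACACCCC and GGAAATCCCC began 125 and 12 bases before it. The Rela window held no match and 31 CpG dinucleotides, the largest number among the member windows, where the median of all windows was 7. DNA methylation and binding were not measured, so these are descriptions of sequence only.

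Levels were compared between genes as CPM per kb of merged exon in control cells. The order depends on that length, which was 12.06 kb for Nfkb1 and 3.07 kb for Rela. Before division by length Nfkb1 was the highest member, at a control mean of 99.8 CPM against 54.0 CPM for Rela. Rela, the main activating subunit, was highest at 17.6 ± 2.96 CPM per kb (SD, n = 3), at the 73.8 percentile of tested genes. Nfkb2 followed at 10.4 ± 1.25, Nfkb1 at 8.27 ± 0.499 and Nfkbia at 7.86 ± 1.02 CPM per kb. Nfkbie stood at 4.10 ± 0.761 and Relb at 2.86 ± 0.259 CPM per kb. The subunits and IkB genes thus ranged from the 25.6 percentile of tested genes for Relb, the lowest of the 4 subunits, to the 73.8 percentile for Rela. Nfkbie was at the 33.1 percentile.

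The other targets were scarce. Birc3 was at 0.555 ± 0.151 and Tnfaip3 at 0.346 ± 0.162 CPM per kb in control, at the 7.62 and 4.77 percentiles of tested genes. Icam1 was at 0.0392 ± 0.0121 and Traf1 at 0.00998 ± 0.00976 CPM per kb. Neighbours in this order whose control replicates overlapped were Nfkb1 and Nfkbia, and Birc3 and Tnfaip3. The other neighbouring pairs did not overlap over the 3 replicates.

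**Figure D1:**
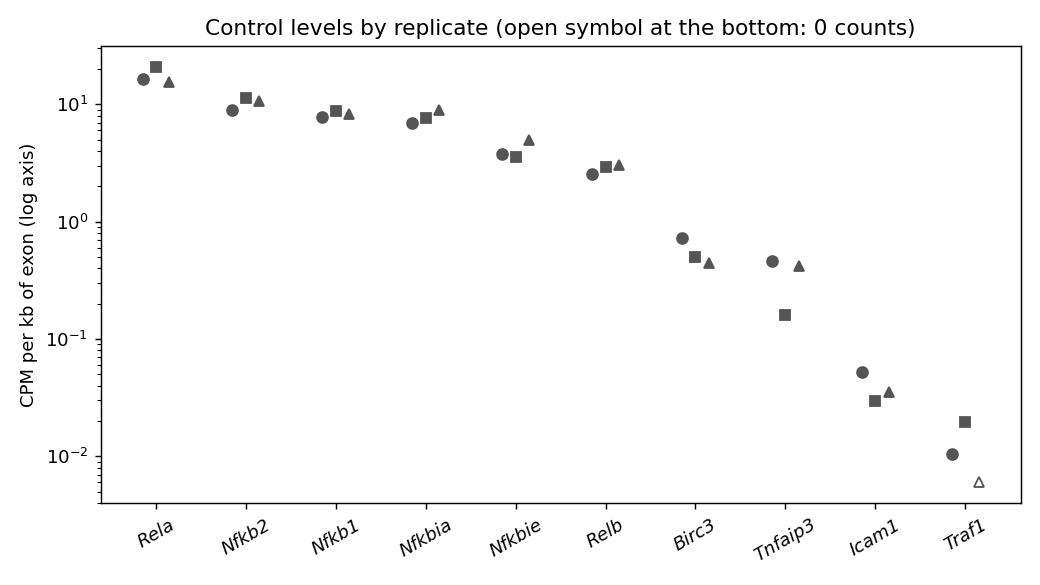
Control levels of the 10 NF-kB genes in CPM per kb of exon on a log axis, with circles, squares and triangles for replicates 1, 2 and 3 and an open symbol, at an arbitrary low position, for 0 counts. Rela is highest at a mean of 17.6 CPM per kb, and Icam1 and Traf1 lie below 0.1 CPM per kb.

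Rela (chr19:5637483-5648130, plus strand) encodes p65, the subunit that activates transcription in the classical pathway. In replicates 1, 2 and 3 its normalized level was 50.4, 64.3 and 47.3 CPM in control, 49.5, 71.7 and 62.8 CPM with DAC, 60.2, 71.5 and 53.2 CPM with SFN, and 64.2, 77.8 and 51.8 CPM with DAC+SFN. Replicate 2 was the highest in each group, and the groups overlapped. Within each replicate number DAC+SFN was above control, by 0.35, 0.27 and 0.13 on the log2 scale. Rela rose in DAC+SFN against control by a log2 fold change of 0.26 ± 0.092 (SE, n = 3), a fold of 1.20 with a 95% interval from 1.04 to 1.37 (adjusted p = 0.0462). With a single agent the log2 difference from control was 0.19 for both DAC (adjusted p = 0.524) and SFN (adjusted p = 0.181). Without 1 library it ran from 0.043, without DAC replicate 3, to 0.31, without DAC replicate 1, for DAC and from 0.14 to 0.22 for SFN.

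Nfkb2 (chr19:46304320-46312385, plus strand) encodes p100, which is processed to the subunit p52 in the noncanonical pathway. Its normalized level was 41.0, 52.0 and 49.4 CPM in control, 43.2, 56.8 and 52.5 CPM with DAC, 42.8, 52.3 and 41.3 CPM with SFN, and 57.9, 64.4 and 48.1 CPM with DAC+SFN. Replicates 1 and 2 of DAC+SFN were above every control replicate, and replicate 3 lay inside the control range. Nfkb2 rose in DAC+SFN against control by a log2 fold change of 0.26 ± 0.090 (SE, n = 3), with an interval in fold from 1.05 to 1.37 (adjusted p = 0.0394), and was higher in 2 of 3 replicates. Against SFN alone it was higher in 3 of 3 replicates, with a log2 difference of 0.32 ± 0.090 (SE) that did not pass the test by edgeR (adjusted p = 0.0756) and passed it by DESeq2 (adjusted p = 0.0306). Against DAC alone the log2 difference was 0.16 (adjusted p = 0.243). Without 1 library it ran from 0.056 to 0.26, the largest without DAC+SFN replicate 3, where it passed the test (adjusted p = 0.031).

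Both calls depended on the model. Without the replicate number as a block, adjusted p was 0.248 for Nfkb2 and 0.364 for Rela. Leaving out control replicate 1, control replicate 2, DAC+SFN replicate 1 or DAC+SFN replicate 2 ended both calls, with adjusted p between 0.102 and 0.248. Without control replicate 3 the Rela call ended (adjusted p = 0.127), and without DAC+SFN replicate 3 both held. The log2 fold change without 1 library ranged from 0.15 to 0.36 for Nfkb2 and from 0.18 to 0.34 for Rela. Nfkb2 shares 531 exon bases with AC114539.1 and 299 with Psd, both on the other strand, and the strand setting of the counting is not given in the sources used here, so their reads may be mixed.

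Relb (chr7:19606217-19629438, minus strand) encodes the usual partner of p52. Across replicates 1 to 3 it stood at 9.98, 11.4 and 11.9 CPM in control, 12.7, 11.7 and 15.4 CPM with DAC, 12.1, 9.30 and 9.65 CPM with SFN, and 9.79, 11.1 and 9.34 CPM with DAC+SFN. Every DAC replicate was above every DAC+SFN replicate. The log2 difference of DAC+SFN from DAC was -0.40 ± 0.14 (SE, n = 3), lower in 3 of 3 replicates, and did not pass the test (adjusted p = 0.0639). Groups that did not overlap in that comparison were found in 18.2% of all tested genes and in 1 of the 8 members. Against control, Relb had a log2 difference of 0.26 with DAC (adjusted p = 0.564) and of -0.14 with DAC+SFN (adjusted p = 0.473). Without 1 library these ran from 0.12 to 0.35 and from -0.27 to -0.059, and the difference from DAC ran from -0.51 to -0.26, the smallest without DAC replicate 3.

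Nfkb1 (chr3:135584655-135691547, minus strand) encodes p105, the precursor of the subunit p50. Its normalized level was 93.5, 105 and 100.4 CPM in control, 88.7, 104 and 106 CPM with DAC, 92.7, 105 and 94.5 CPM with SFN, and 93.2, 98.4 and 99.5 CPM with DAC+SFN. The 4 groups covered much the same range. The 95% interval of the fold against control ran from 0.916 to 1.09 with DAC, from 0.897 to 1.06 with SFN and from 0.893 to 1.06 with DAC+SFN, which were the narrowest intervals of any tested member in these comparisons.

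**Figure D2:**
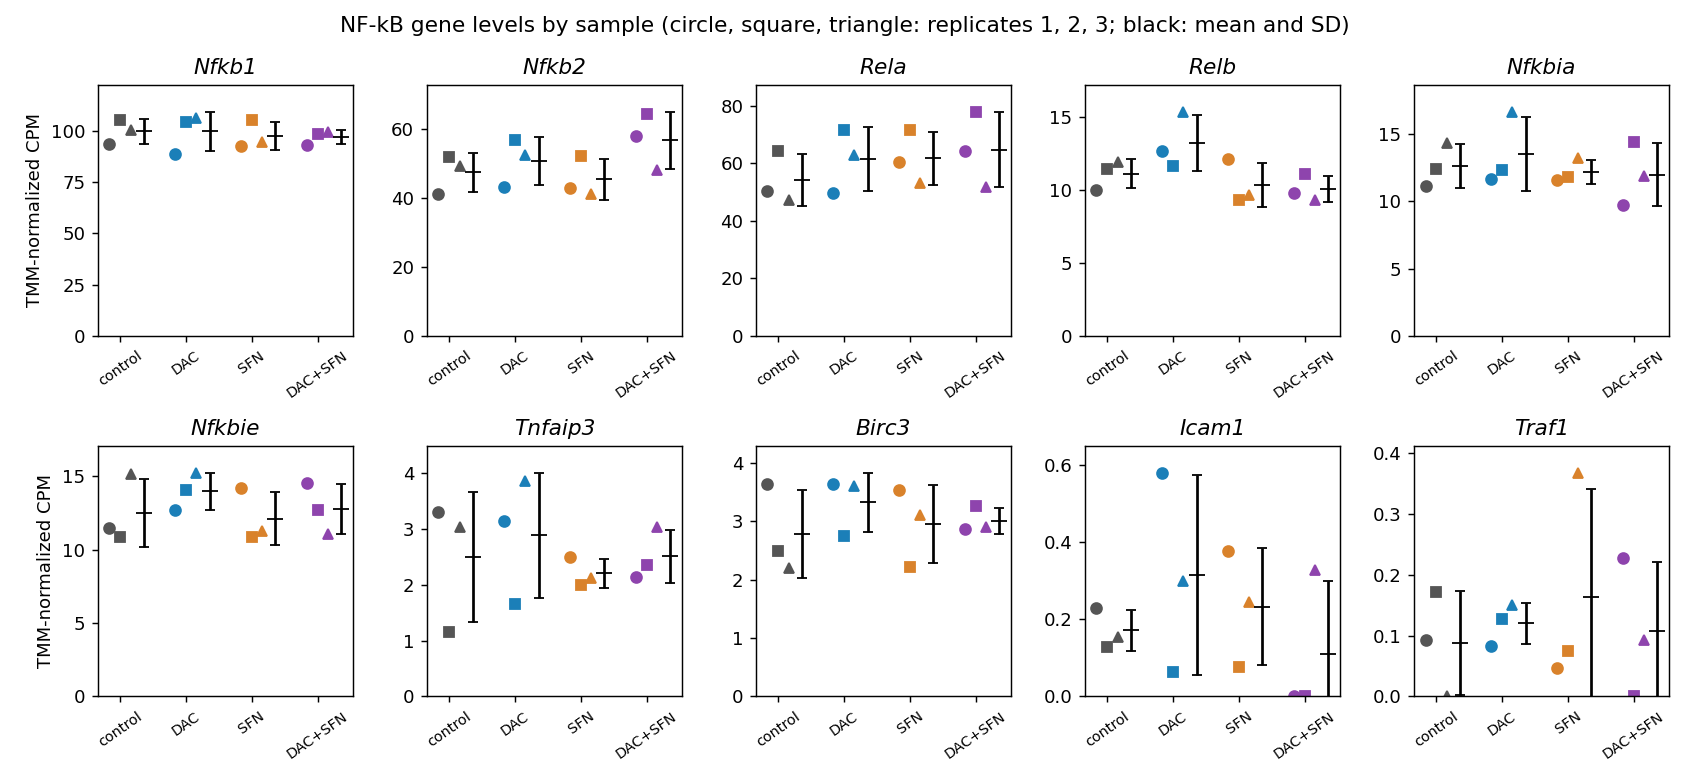
TMM-normalized CPM of each NF-kB gene by sample, 1 panel a gene with its own axis from 0, with circles, squares and triangles for replicates 1, 2 and 3 and the mean with SD in black (bars that would pass below 0 are cut there). Rela and Nfkb2 are highest in DAC+SFN replicate 2, at 77.8 and 64.4 CPM, and the groups overlap in both genes.

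Nfkbia (chr12:55489410-55492647, minus strand) encodes IkB-alpha, the inhibitor that NF-kB itself induces most directly. Its normalized level was 11.1, 12.4 and 14.4 CPM in control, 11.6, 12.3 and 16.7 CPM with DAC, 11.6, 11.8 and 13.3 CPM with SFN, and 9.70, 14.4 and 11.9 CPM with DAC+SFN. The groups overlapped in every comparison, and the interval of the fold of DAC+SFN against control ran from 0.786 to 1.14 (adjusted p = 0.679). Nfkbie (chr17:45555703-45563169, plus strand) encodes IkB-epsilon. By replicate its level was 11.5, 10.9 and 15.1 CPM in control, 12.7, 14 and 15.2 CPM with DAC, 14.2, 10.9 and 11.2 CPM with SFN, and 14.5, 12.7 and 11.1 CPM with DAC+SFN. Its replicates went opposite ways, with DAC+SFN above control by 0.34 and 0.22 in replicates 1 and 2 and below it in replicate 3 (log2 difference of -0.45).

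Tnfaip3 (chr10:19000910-19015657, minus strand) encodes A20, an enzyme that edits ubiquitin chains and shuts off signalling to NF-kB. Its normalized level was 3.31, 1.16 and 3.03 CPM in control, 3.15, 1.66 and 3.86 CPM with DAC, 2.49, 2.00 and 2.13 CPM with SFN, and 2.14, 2.35 and 3.03 CPM with DAC+SFN. Replicate 2 was the lowest of control and of DAC by a wide margin, from 27 and 26 counts. The spread left wide intervals, from 0.696 to 1.55 in fold for DAC+SFN against control (adjusted p = 0.903).

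Birc3 (chr9:7848699-7873186, minus strand) encodes cIAP2, a ubiquitin ligase that works at the TNF receptor. Its normalized level was 3.63, 2.50 and 2.21 CPM in control, 3.64, 2.74 and 3.60 CPM with DAC, 3.53, 2.22 and 3.11 CPM with SFN, and 2.87, 3.26 and 2.89 CPM with DAC+SFN. The groups overlapped in every comparison. The interval in fold for DAC+SFN against control ran from 0.798 to 1.49 (adjusted p = 0.689).

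Icam1 (chr9:21015985-21028817, plus strand), an adhesion molecule and a classical NF-kB target, had 0 to 14 counts in each library. Pooled over 3 replicates it was at 0.171 CPM in control with an exact Poisson interval from 0.0852 to 0.305, at 0.346 CPM with DAC (0.219 to 0.519), at 0.221 CPM with SFN (0.126 to 0.36) and at 0.109 CPM with DAC+SFN (0.0438 to 0.224). It had 0 counts in replicates 1 and 2 of DAC+SFN, which allow up to 0.137 and 0.144 CPM at 3 counts. Within DAC the replicates had between 1 and 14 counts, and the pooled intervals cover counting error only. Icam1 shares 511 exon bases with the antisense gene Gm47079.

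Traf1 (chr2:34941750-34961772, minus strand), an adaptor of TNF receptors, had 0 to 9 counts in each library. Its pooled level was lowest in control at 0.0931 CPM and highest in SFN at 0.166 CPM, with intervals from 0.0342 to 0.203 and from 0.0858 to 0.29. The SFN replicates 1, 2 and 3 had 1, 2 and 9 counts, so the rank of SFN rests on replicate 3. Control replicate 3 and DAC+SFN replicate 2 had 0 counts, which allow up to 0.154 and 0.144 CPM. Neither gene was tested with the filter on low counts. With no filter, the lowest adjusted p over the 6 comparisons was 0.36 for Icam1 and 0.808 for Traf1.

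DAC alone was compared with control to ask what the methyltransferase inhibitor did to these genes. By edgeR 0 of 8 members were called, by DESeq2 also 0, and 0 had an unadjusted p under 0.05. In that comparison 0.18% of all tested genes were called and 10.1% had an unadjusted p under 0.05. The log2 difference was above 0 in 7 of 8 members, with a median of 0.18 against 0.0049 over all tested genes, and the 8 share the same control and DAC libraries. Without DAC replicate 3 the median was 0.059 with 6 of 8 above 0, without control replicate 2 it was 0.089, and without DAC replicate 1 it was 0.27. The interval that reached farthest from no change, that of Tnfaip3, ended at 1.75-fold.

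SFN alone also left 0 of 8 members called by edgeR and by DESeq2, and 0 at an unadjusted p under 0.05, where 13.9% of all genes were called and 28.8% had an unadjusted p under 0.05. The members' median log2 difference was -0.046 (from -0.11 to 0.0050 without 1 library, the highest without SFN replicate 3), 2 were above 0 and 6 below, and the farthest interval limit was 1.63-fold. Rela, the most changed of them, had a log2 difference of 0.19 with the same direction in 3 of 3 replicates.

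The combination was compared with each single agent to ask what the second agent added. Against DAC, 0 of 8 members were called by edgeR or DESeq2 and 1, Relb, had an unadjusted p under 0.05, where 16.1% and 30.5% of all genes did so. Against SFN, 0 of 8 were called by edgeR, 1 (Nfkb2) by DESeq2 and 1 (Nfkb2) at an unadjusted p under 0.05, where 1.61% and 17.8% of all genes were by edgeR. The share of all genes called by DESeq2 is not given here, so the DESeq2 call has no background. The interaction, which asks whether the combination differed from the sum of the single effects on the log2 scale, had 0 of 8 members called by edgeR or DESeq2 and 0 at an unadjusted p under 0.05. Over all genes the interaction was called in 0% and had an unadjusted p under 0.05 in 5.87%. Median log2 values of the members were -0.14 against DAC, 0.055 against SFN and -0.10 for the interaction. Without 1 library they ran from -0.26 to -0.029, from -0.021 to 0.12 and from -0.21 to 0.0021. Interval limits reached 1.68-fold in both comparisons and 1.83-fold for the interaction, all in Tnfaip3.

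**Figure D3:**
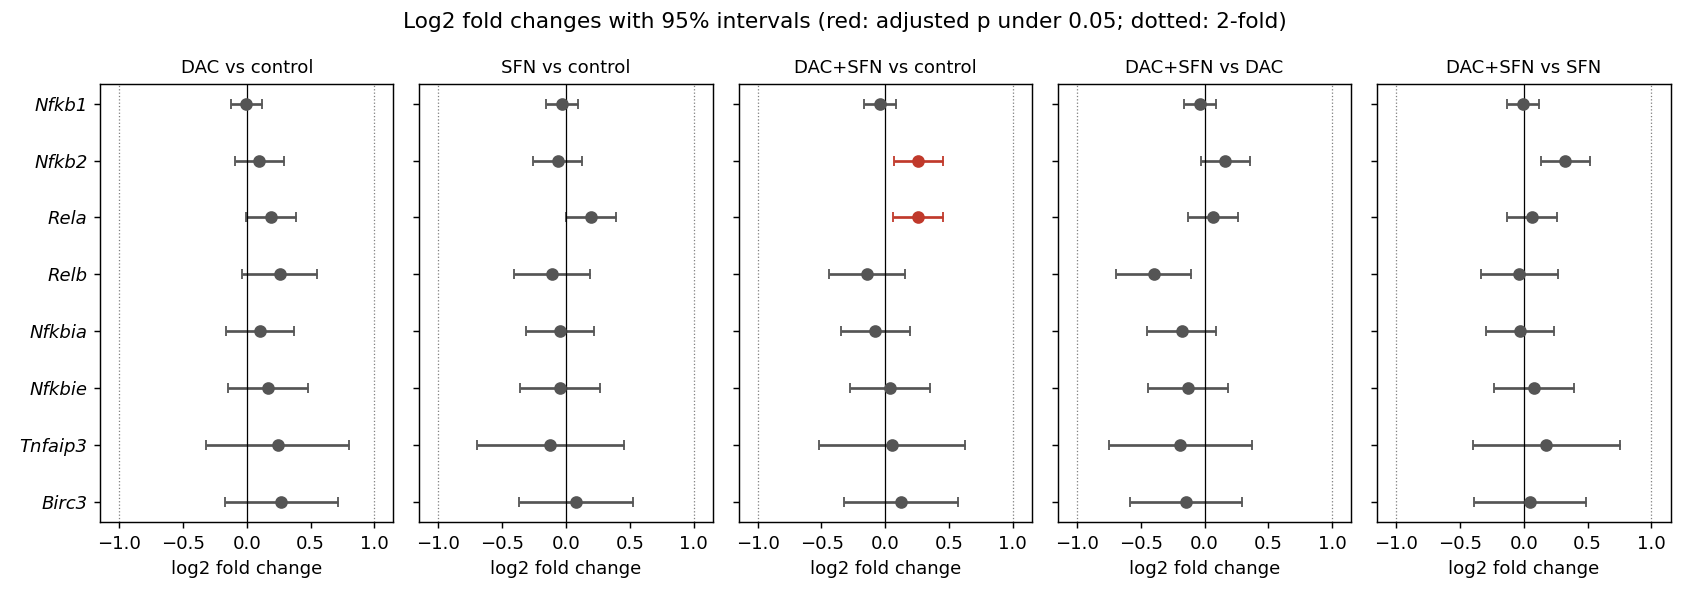
Log2 fold changes of the 8 tested NF-kB genes in 5 comparisons, as points with 95% intervals, red where the adjusted p was under 0.05 and with dotted lines at 2-fold. Only Nfkb2 and Rela in DAC+SFN against control are red, at 0.26 each, and no interval reaches a dotted line.

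The levels of Rela, Nfkb2 and Nfkb1 also differed between replicate numbers. A joint test of the replicate terms, added after the levels were seen, called 3 of 8 members, Rela (adjusted p = 0.00238), Nfkb2 (adjusted p = 0.0196) and Nfkb1 (adjusted p = 0.0419), where it called 33.9% of all genes. Rela was higher in replicate 2 than in replicate 1 by 0.35 on the log2 scale, and Nfkb2 by 0.29. A joint test of the 3 treatments called 0 of 8 members and 25.2% of all genes, with the lowest adjusted p at 0.0533 for Nfkb2, 0.119 for Relb and 0.175 for Rela. Library numbers in the labels ran from 1 to 4, 5 to 8 and 11 to 14 for replicates 1, 2 and 3, so a library batch and the replicate number cannot be told apart. The summed fibroblast markers, carried mostly by Col1a1, ranged from 17.9 to 314 CPM within control and from 25.7 to 247 CPM within DAC+SFN, while Dcn and Lum had 0 to 3 counts, and their part in these differences was not tested.

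Pairs of members were compared by Pearson's r of log2 CPM over the 12 libraries, which share treatments and replicate numbers, so r is a description. Among members the highest was 0.775 for Nfkb2 and Rela and the lowest was -0.57 for Nfkb1 and Birc3. Nfkb2 and Relb, the pair of the noncanonical pathway, had r of 0.0712. The ratio of Nfkb2 to Relb reads, chosen after the values were seen, was 4.11, 4.54 and 4.15 in control and 5.92, 5.82 and 5.15 in DAC+SFN. These groups did not overlap. The ratio was 3.41, 4.86 and 3.42 with DAC, which overlapped control, and 3.54, 5.62 and 4.28 with SFN, which overlapped both. The ratios of Rela to Nfkbia, Nfkb1 to Nfkbia and Rela to Nfkb1 were also computed, and each overlapped between control and DAC+SFN. How often the ratio of any 2 genes would separate these groups was not tested.

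The genes outside the family with the patterns most like Nfkb2, Rela and Relb, the members with the lowest p in the joint treatment test, were found in the same way over 12 libraries. For Rela they were Nrbp1 (r of 0.984), Ttyh2 (0.959) and Sharpin (0.959). For Nfkb2 they were Ptpn23 (0.951), Zbtb21 (0.936) and Usp19 (0.928). For Relb they were E130012A19Rik (0.878), Pagr1a (0.842) and Cog7 (0.836).

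Upstream and downstream genes of the pathway were described from 5 lists of 71 genes, of which 54 passed the filter. In DAC+SFN against control, 14 of the 54 rose and 2 fell, 29.6% called, where 17% of all genes rose and 14.7% fell. With SFN alone 9 rose and 3 fell, 22.2% against 13.9% of all genes. With DAC alone 0 were called, against 0.18% of all genes. In DAC+SFN against DAC 8 rose, 14.8% against 16.1%, and against SFN 0 were called, against 1.61%. Without 1 library 4 to 9 listed genes were called against DAC and 0 to 3 against SFN. The counts depended on the block in the model: without it 6 were called in DAC+SFN against control, 0 with SFN and 0 against DAC.

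Among receptors and adaptors, which carry the signal from the cell surface, 7 of 16 tested genes rose and 1 fell in DAC+SFN against control. Irak2, a kinase-like adaptor of interleukin-1 and Toll-like receptors, was at 16.1 ± 1.52 CPM in control (SD, n = 3), 19.9 ± 2.62 with DAC, 24.7 ± 5.01 with SFN and 28.8 ± 3.71 with DAC+SFN. Its rise in DAC+SFN was 0.84 ± 0.096 (SE) on the log2 scale (adjusted p = 2.5e-05). Ticam1, the adaptor of TLR3, rose by 0.40. That call was lost without the block (adjusted p = 0.105) and without replicate 2 of every group (0.0503). Irak1 rose by 0.39. The one that fell, Traf6, a ubiquitin ligase in the same route, had a log2 fold change of -0.20 (adjusted p = 0.027) and was chosen after its values were seen.

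In the kinase complexes, which release NF-kB from its inhibitors, 1 of 10 rose. It was Ikbkg, the regulatory subunit NEMO, at 0.28 ± 0.080 (SE) on the log2 scale (adjusted p = 0.0156). The Ikbkg call was lost without the block (adjusted p = 0.0533) and without replicate 2 of every group (0.196). It was also lost without control replicate 2 (0.131) and without DAC+SFN replicate 2 (0.0799). Chuk and Ikbkb, the catalytic subunits, had log2 differences of -0.12 (adjusted p = 0.144) and 0.012 (adjusted p = 0.897). Of the other subunits and inhibitors, 0 of 4 tested genes were called by edgeR in any comparison, and Nfkbid had 0 counts in every library. Rel, the remaining subunit of the family, was low at 3.48 ± 0.605 CPM in control and had a log2 difference of -0.13 in DAC+SFN (adjusted p = 0.615).

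Of 12 ubiquitin regulators 2 rose in DAC+SFN against control. Cyld, a deubiquitinase that restrains NF-kB signalling, was at 46.3 ± 1.17 CPM in control and rose by 0.48 ± 0.075 (SE) on the log2 scale (adjusted p = 3.2e-04). Traf3, which holds the noncanonical pathway in check, rose by 0.21 (adjusted p = 0.0125). The Traf3 call was lost without the block (adjusted p = 0.105), without control replicate 1 (0.0616), without DAC+SFN replicate 1 (0.0875) and with the samples of those groups only (0.0798).

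The list of other targets held 23 genes that NF-kB is known to induce, and 11 of them were below the filter. Cxcl2 and Ccl20, chemokines, had 0 counts in every library, as did Cd40 from the receptor list, and Ccl2, Ptgs2 and Nos2 had at most 2. Of the 12 tested, 4 rose and 1 fell in DAC+SFN against control. Gadd45b, a stress-response gene, rose by 1.14 ± 0.21 (SE) on the log2 scale (adjusted p = 0.00102, and 0.0989 without the block), Bcl2l1, which protects cells from apoptosis, by 0.93 ± 0.10 (adjusted p = 1.5e-05) and Cflar, an inhibitor of caspase-8 activation, by 0.46 ± 0.076 (adjusted p = 4.7e-04). Ier3, an early-response gene chosen after its values were seen, fell from 54.1 ± 15.3 to 32.3 ± 6.68 CPM, by 0.71 on the log2 scale (adjusted p = 0.0123). Vcam1 and Bcl3, the latter from the list of subunits and inhibitors, had log2 differences of 0.95 and 0.96 from control means of 0.522 and 0.573 CPM and did not pass the test (adjusted p = 0.18 and 0.0772).

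**Figure D4:**
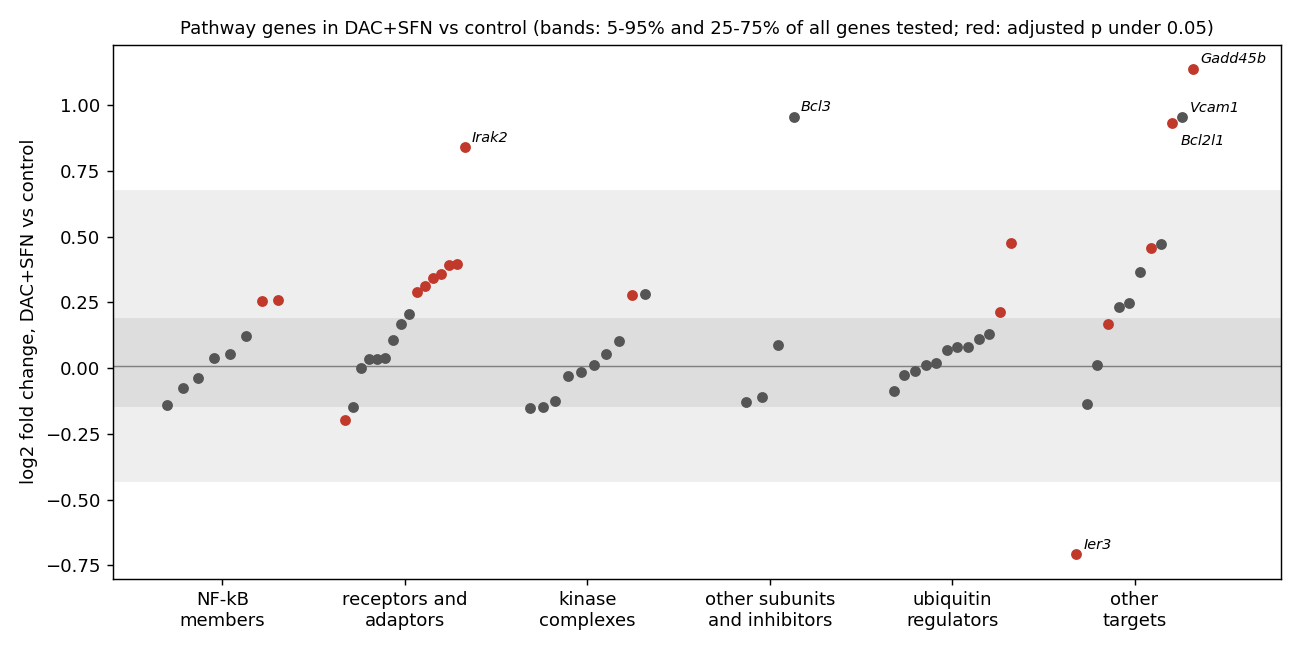
Log2 fold changes of DAC+SFN against control for the 8 tested NF-kB genes and the tested genes of 5 pathway lists, 1 point a gene, red where the adjusted p was under 0.05, over bands that hold 25 to 75% and 5 to 95% of all tested genes. The NF-kB genes lie between -0.14 and 0.26, while Irak2, Bcl2l1, Gadd45b, Bcl3 and Vcam1 lie above the wider band and Ier3 below it.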

How the data were processed

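The authors deposited raw read counts per gene for 12 libraries from a stranded mRNA kit. Per the submitters' processing notes and the study's methods, single-end reads were trimmed with Trimmomatic 0.38, aligned to mm10 with TopHat2 2.1.1 and counted with HTSeq, keeping uniquely aligned reads. The annotation and strand setting are not given in the sources used here. Groups and replicate numbers came from the labels. Genes that reached 1 CPM in 3 or more libraries (11638 of 24421) were tested in edgeR 4.0.16 (R 4.3.3) with TMM scaling and glmQLFTest (legacy fit), all 12 libraries in 1 model. The replicate number was a block, because the study's methods correct for a batch. Same-numbered samples deviated together (18 pairs, r between 0.27 and 0.732, mean 0.544). Intervals are 95% t intervals. P-values were adjusted by Benjamini-Hochberg over all tested genes, and scripts were tested on simulated data. DESeq2 1.42.0 was an alternative.

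Exon lengths came from GENCODE M21 on mm10 for 96.5% of tested genes, and promoters from RefSeq. All 10 members are named. From each pathway list, up to 3 called genes with the smallest adjusted p in DAC+SFN against control are named, and others where stated. The members and lists were chosen with earlier results of these data known. 1 listed marker is not reported here.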

Additional observations from a re-analysis of the deposited data

How the results depend on the processing

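The fold changes of the members were recomputed under other size factors, tests, filters, sample sets and with no replicate block. Of 376 such member values, 359 stayed in direction and on their side of the threshold, and 8 changed sign, all without replicate 2 of every group. Of all 712 member values, leaving out single libraries included, 64 changed sign, and 0 of these had an adjusted p under 0.05. Of 40 group levels, 0 moved beyond 1 SD when libraries were scaled by their totals.

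Samples of the same replicate number went together in these libraries, with pairwise correlations of deviations between 0.27 and 0.732. For DAC+SFN against control, 0 members were called without the replicate block, 0 without replicate 2 of every group, 1 (Rela) with the samples of those groups only, 0 with a fold above 2 asked as well, and 0 to 2 without 1 library. Against DAC, 1 (Relb) was called with no filter on low counts, and 0 to 1 without 1 library, Relb without DAC+SFN replicate 2 and Nfkb2 without DAC+SFN replicate 3. Against SFN, 1 (Nfkb2) was called with no filter, by DESeq2 and with the samples of those groups only, and 0 to 1 without 1 library, the call coming without DAC+SFN replicate 3. The calls of all genes under these settings against DAC and against SFN are not given here, so these member calls have no background. The block changed no other call of a member.

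Pathway lists were recomputed under settings added after the data were seen. Listed genes called without the replicate block were 0 for SFN, 6 for DAC+SFN against control and 0 against DAC, out of 54 tested. In the main fit they were 12, 16 and 8. Without replicate 2 of every group they were 2, 8 and 4. With the samples of the compared groups only they were 4 for DAC, 3 for DAC+SFN against DAC and 4 against SFN. With no filter they were 1 for DAC and 1 against SFN, and by DESeq2 1 against SFN. With the compared groups only and with no filter, more of all genes were also called for DAC than in the main fit. The shares of all genes called under these settings are not given here, so the listed counts have no background. Without 1 library the counts ran from 3 to 9 for SFN (5, 5, 6 and 3 without control 1, control 2, SFN 1 and SFN 2), from 4 to 9 against DAC (4 without DAC 1, DAC 2 or DAC+SFN 1) and from 0 to 3 against SFN (3 without DAC+SFN 3). Values of Irak2, Irak1, Ticam1, Ikbkg, Cyld, Traf3, Bcl2l1, Cflar and Gadd45b were recomputed in DAC+SFN against control. Of 126 such values, 115 kept their call, 11 lost it and 0 changed sign. The calls of Traf6 and Ier3 were not tested in this way.

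Without replicate 2 of every group the log2 difference changed sign for Nfkb1 in DAC against control (0.0061), for Nfkbie (-0.063), Tnfaip3 (-0.31) and Birc3 (-0.026) in DAC+SFN against control, for Nfkb1 (0.038) and Birc3 (-0.20) against SFN, and for Nfkb1 (0.032) and Tnfaip3 (0.022) in the interaction. Where leaving out 1 library changed the sign of a log2 difference, its range is given here. For DAC against control it ran from -0.050 to 0.043 for Nfkb1 and from -0.015 to 0.20 for Nfkbia. For SFN against control it ran from -0.067 to 0.011 for Nfkb1, from -0.12 to 0.0068 for Nfkb2, from -0.18 to 0.12 for Nfkbie, from -0.40 to 0.13 for Tnfaip3 and from -0.094 to 0.24 for Birc3. For DAC+SFN against control it ran from -0.27 to 0.024 for Nfkbia, from -0.070 to 0.20 for Nfkbie, from -0.21 to 0.31 for Tnfaip3 and from -0.082 to 0.30 for Birc3. For DAC+SFN against DAC it ran from -0.082 to 0.012 for Nfkb1, from -0.060 to 0.21 for Rela, from -0.25 to 0.013 for Nfkbie, from -0.40 to 0.048 for Tnfaip3 and from -0.33 to 0.024 for Birc3. For DAC+SFN against SFN it ran from -0.050 to 0.030 for Nfkb1, from -0.0090 to 0.15 for Rela, from -0.15 to 0.13 for Relb, from -0.21 to 0.075 for Nfkbia, from -0.021 to 0.22 for Nfkbie, from -0.051 to 0.41 for Tnfaip3 and from -0.15 to 0.21 for Birc3. For the interaction it ran from -0.049 to 0.045 for Nfkb1, from -0.25 to 0.019 for Rela, from -0.27 to 0.056 for Nfkbie and from -0.33 to 0.17 for Tnfaip3. The causes were not tested.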
